A study of Homo sapiens with 6 samples.

Results

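The COUP transcription factors NR2F1 and NR2F2, their relative NR2F6, and the antisense RNAs NR2F1-AS1 and NR2F2-AS1 were followed in BT474 cells that carried a variant of NR2F1-AS1. All probes whose gene name in the array files equals one of these 5 names were taken, and each probe was kept apart. This gave 11 of 58201 non-control probes, with 1 probe each for NR2F1, NR2F2 and NR2F6 and 4 probes for each antisense RNA.

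BT474 is an established breast cancer line that expresses estrogen receptor (ER) and carries extra copies of ERBB2 (HER2). RNA of 3 groups was measured on 6 one-color Agilent arrays, 2 per group: Control BT474 cells with empty pcDNA3.1, BT474-Var1 cells with variant1 of NR2F1-AS1, and BT474-Var4 cells with variant4. The study set out to learn what a gain of this long noncoding RNA does to ER-positive cells, and these probes show what happened at the receptor gene beside it and at the other members of the receptor family. The long Var1 was carried by pcDNA3.1/Hygro(+) and the short Var4 by pcDNA3.1-P2A-eGFP, both driven by the strong viral promoter of pcDNA3.1, and the study used each plasmid without insert as a control. Which of them the Control arrays represent is not stated for the arrays. After nucleofection and antibiotic selection most variant cells were lost, so each variant population had grown from the few cells that remained, and its time in culture is not stated for the arrays. No source used here says whether replicate arrays came from separate cultures, so p-values measure the spread between these arrays.

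NR2F1 and NR2F2, also named COUP-TFI and COUP-TFII, are orphan nuclear receptors that bind repeats of the hormone receptor half-site AGGTCA as dimers with each other or with retinoid X receptors, and they mostly repress transcription by recruiting corepressors. NR2F1 is best known from the patterning of the developing brain and from dormancy of cancer cells, NR2F2 from veins, lymphatic vessels and mesenchyme, and NR2F6 from the restraint of T cell activation. NR2F1-AS1 and NR2F2-AS1 are long noncoding RNAs that start close to the receptor genes and run away from them on the opposite strand.

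The levels below are log2 intensities relative to the 75th percentile of the array, so that 0 is the 75th percentile, and they may be compared between arrays for a probe but not between probes. A probe counts as measured where the scanner software marked it well above background, which held for 47.6% to 57.5% of the probes of an array. A probe entered the test where both arrays of any group measured it, which gave 31858 probes. limma was fitted to the 6 arrays with 1 mean for each group, and a change passed at an adjusted p under 0.05. Replicate arrays correlated at r = 0.993 to 0.996 over these probes. All 17 probes of 9 luminal epithelial genes, ESR1, PGR and ERBB2 among them, were measured on all 6 arrays. The BT474-Var1 arrays lay in another line of the slide than the other 4. Within that other line the Control arrays lay in columns 1 and 2 and the BT474-Var4 arrays in columns 3 and 4. The position on the slide and the group therefore cannot be told apart in any comparison.

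NR2F1-AS1 RNA was high in both variant populations, but at different places along the gene. The probe nearest the 5′ end was higher in both, the next one rose in BT474-Var4 cells and was below background in BT474-Var1 cells, and the pair of probes toward the 3′ end rose in BT474-Var1 cells and was below background in BT474-Var4 cells. The array annotation ties the probes to transcripts: the pair at the 3′ end is described as transcript variant 1, at bases 1627 and 3078 of it, A_24_P51080 as variant 4 at base 2485, and the 5′-most probe as variant 6 at base 444. The pair lies 1451 bases apart both in the transcript and in the genome. Of the 4 transcripts that the annotation lists for each probe, the pair shares 4, the 5′-most probe shares 1 with the pair, and A_24_P51080 shares 0 with any of the other 3; no probe of the array has more than 4 entries, so the lists may be cut short. The 60-base probes are shown 5′ to 3′ in the sense of the RNA, as the array files give them, because their place decides which variant each one reports; capitals mark AATAAA, the commonest polyadenylation signal of messenger RNA.
NR2F1-AS1 A_22_P00006111: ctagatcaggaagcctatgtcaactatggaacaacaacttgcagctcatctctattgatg
NR2F1-AS1 A_24_P51080: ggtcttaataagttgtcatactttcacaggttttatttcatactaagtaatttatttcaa
NR2F1-AS1 A_22_P00006112: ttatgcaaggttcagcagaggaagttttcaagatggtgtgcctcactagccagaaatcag
NR2F1-AS1 A_19_P00320140: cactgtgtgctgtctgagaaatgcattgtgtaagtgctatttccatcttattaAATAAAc

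On the minus strand of hg19 (GRCh37) these 4 probes lie, from the 5′ end, at chr5:92889467-92889526, chr5:92877924-92877983, chr5:92746995-92747054 and chr5:92745544-92745603. The first is 40.2 kb from the probe of NR2F1, which lies on the plus strand at chr5:92929717-92929776, and the last is 184.1 kb from it. A_24_P51080 is rich in A and T, with a GC content of 25%, against 35% to 45% for the other 3. AATAAA was searched on the strand shown only, in all 58201 probes of the same length, and 7.85% of them hold it; among these 4 it stands in A_19_P00320140. The array cannot tell RNA made from the plasmid from RNA made at the chromosome.

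The 5′-most probe A_22_P00006111 was at 3.01 and 3.02 on the BT474-Var4 arrays, at -1.69 and -1.52 on the BT474-Var1 arrays, and at -5.76 and -4.16 on the Control arrays, of which only the second was measured. The 3 groups did not overlap. In BT474-Var4 cells it was 149.8-fold higher than in Control cells when the unmeasured Control array was raised to its dimmest measured probe (adjusted p = 0.0041, limma), and in BT474-Var1 cells it was 6.07-fold higher in the same way (adjusted p = 0.0134). BT474-Var4 cells also exceeded BT474-Var1 cells, by 4.62 ± 0.54 on the log2 scale (SE, n = 2 per group; adjusted p = 0.00532, limma), where both were measured on every array. The rise in BT474-Var1 cells did not pass under 4 of 14 alternatives, among them the fits without BT474-Var1 A and without BT474-Var1 B (adjusted p = 0.0584 and 0.0627).

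A_24_P51080, described as variant 4, had intensities of 353 and 323 on the BT474-Var4 arrays, a mean level of 1.58. It was below background on both BT474-Var1 arrays and on 1 Control array, and the other Control array measured it at -4.25. In BT474-Var4 cells it was 57.2-fold higher than in Control cells with the unmeasured array raised as above (adjusted p = 0.00846, limma; 0.0505 with no filter on dim probes) and at least 48.8-fold higher than in BT474-Var1 cells (adjusted p = 0.00337). No fold of BT474-Var1 against Control cells is given. BT474-Var1 cells gave no measured value, and the Control mean of -5.34 lay below the dimmest measured probe of either BT474-Var1 array (-3.87 and -4.18).

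A_22_P00006112, the first of the pair described as variant 1, was at -0.19 and -0.22 on the BT474-Var1 arrays, at -3.61 on the Control array that measured it, and below background on the BT474-Var4 arrays. A_19_P00320140, the second, was at -0.42 and -0.51 on the BT474-Var1 arrays and below background on the other 4. The level of A_19_P00320140 in BT474-Var1 cells exceeded that in Control cells at least 15.1-fold (adjusted p = 0.00233, limma) and that in BT474-Var4 cells at least 10.8-fold (adjusted p = 0.0012). That of A_22_P00006112 exceeded BT474-Var4 cells at least 12.7-fold (adjusted p = 0.00166) and Control cells 13.2-fold with the unmeasured array raised (adjusted p = 0.0034). The plot of levels along the locus sets the 3 groups side by side at each probe.

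**Figure D1:**
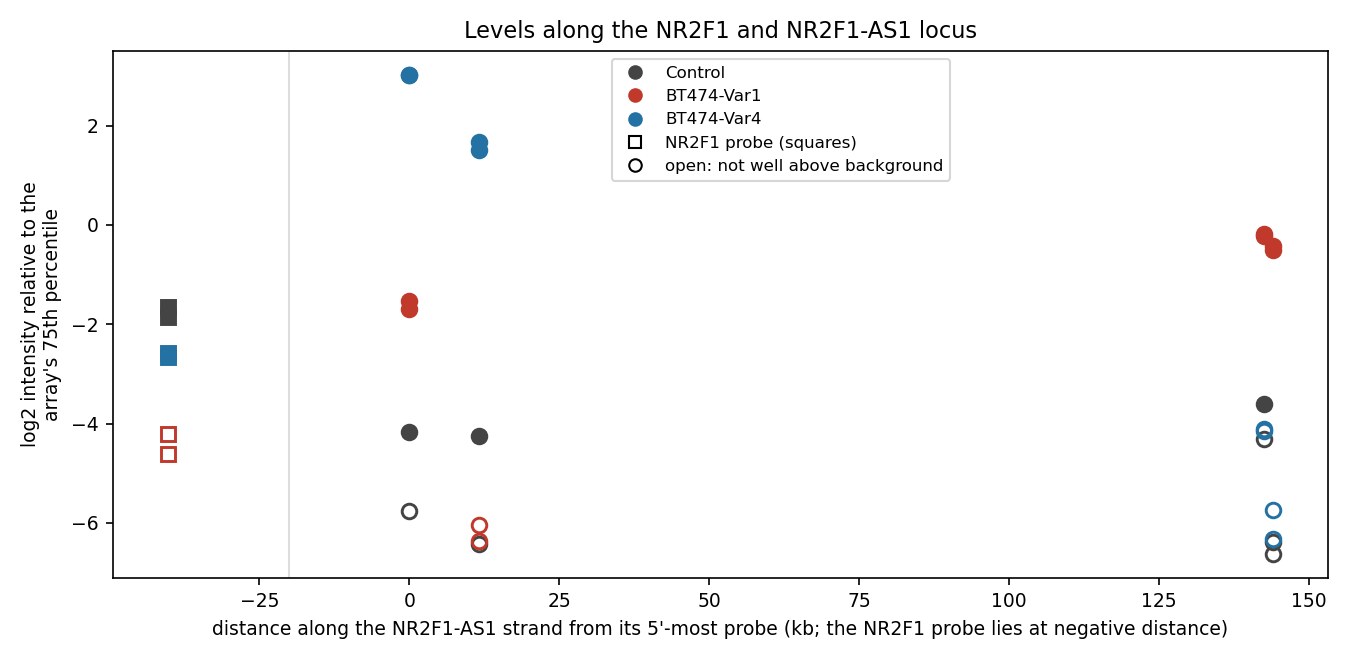
Log2 intensity relative to the array's 75th percentile (vertical axis) of the NR2F1-AS1 probes (circles) and the NR2F1 probe (squares) against the distance in kb from the 5′-most NR2F1-AS1 probe (horizontal axis); each point is 1 array, 2 per group, and open points were not well above background. BT474-Var4 arrays were the highest at 0 and 11.54 kb and BT474-Var1 arrays at 142.5 and 143.9 kb, while both variant populations lay below Control at NR2F1.

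NR2F1, the receptor gene on the other strand, was lower in both variant populations. Its probe was at -1.64 and -1.86 on the Control arrays and at -2.58 and -2.65 on the BT474-Var4 arrays, with intensities of 34.6, 29.2, 18.6 and 18.2. On the BT474-Var1 arrays it was not above background, at -4.61 and -4.20. The 3 groups did not overlap, and their order was Control, BT474-Var4, BT474-Var1. NR2F1 was at least 4.83-fold lower in BT474-Var1 than in Control cells (adjusted p = 0.00327, limma) and at least 2.65-fold lower in BT474-Var1 than in BT474-Var4 cells (adjusted p = 0.0032). Between BT474-Var4 and Control cells it differed by -0.87 ± 0.16 (SE, n = 2 per group; 95% interval -1.30 to -0.44; adjusted p = 0.0271), a fall of 1.83-fold.

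The 2 differences that involve BT474-Var1 passed under all 14 alternatives that could test the probe. The difference between BT474-Var4 and Control passed under 7 of 14; without any 1 of the 4 arrays compared its adjusted p lay between 0.0859 and 0.117, and with the replicate letter as a block it was 0.0619. With the background corrected by normexp (offset 50), which pulls dim levels together, the changes were smaller, -0.43 in BT474-Var1 cells and -0.28 in BT474-Var4 cells, with adjusted p-values of 9.1e-05 and 0.00162. It shrank the rises of NR2F1-AS1 as well, to 1.17 and 1.29 at the pair in BT474-Var1 cells and to 4.02 and 2.79 at the 5′-most probe and A_24_P51080 in BT474-Var4 cells. In these arrays of bulk RNA, fewer cells that express a gene and less RNA per cell cannot be told apart.

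**Figure D2:**
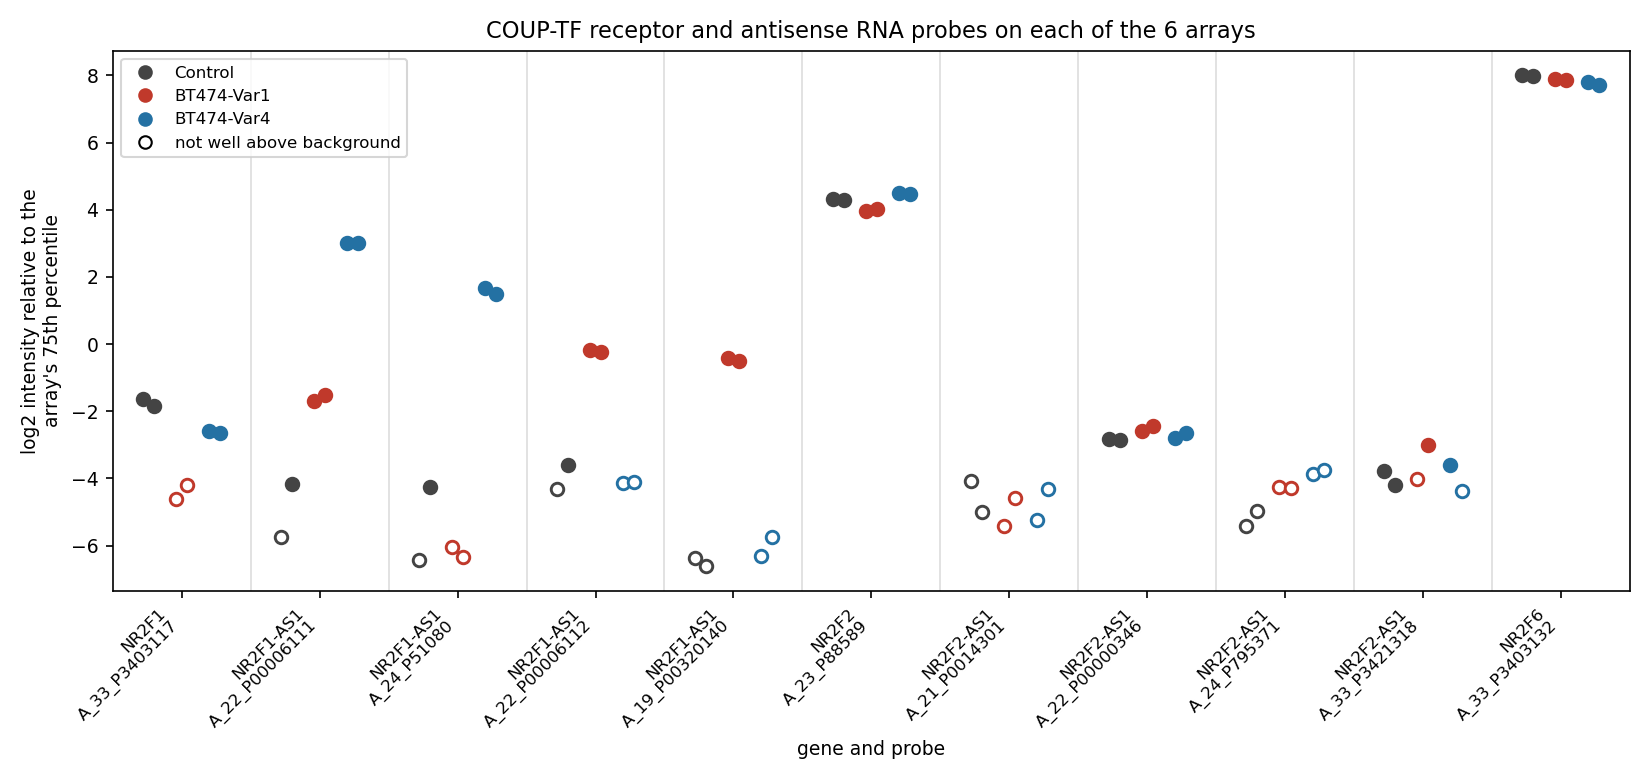
Log2 intensity relative to the array's 75th percentile (vertical axis) of each of the 11 probes (horizontal axis, by gene and from the 5′ end within an antisense RNA) on the 2 arrays of each group; open points were not well above background, and levels of different probes are not comparable. NR2F1 fell from -1.75 on average in Control to -2.62 in BT474-Var4 cells and below background in BT474-Var1 cells, while NR2F2 and NR2F6 moved within 0.49 log2 units over the 3 groups.

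NR2F2 was measured on every array, fell slightly in BT474-Var1 cells and was higher in BT474-Var4 than BT474-Var1 cells. Its probe, on the plus strand at chr15:96881957-96882016, was at 4.31 and 4.30 on the Control arrays, at 3.97 and 4.02 on the BT474-Var1 arrays, and at 4.50 and 4.47 on the BT474-Var4 arrays. Mean intensities were 2112, 1575 and 2532, and no groups overlapped, with BT474-Var4 the highest and BT474-Var1 the lowest. NR2F2 fell by 0.31 ± 0.05 in BT474-Var1 relative to Control cells (SE, n = 2 per group; 95% interval -0.44 to -0.17; adjusted p = 0.0143, limma), a fall of 1.24-fold. In BT474-Var4 cells it was 0.18 ± 0.05 above Control, which did not pass (95% interval 0.05 to 0.32; adjusted p = 0.0621), although it passed under 4 of 15 alternatives. The difference between BT474-Var4 and BT474-Var1 cells was 0.49 ± 0.05, or 1.41-fold (adjusted p = 0.00403), and it passed under all 15 alternatives.

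The fall of NR2F2 in BT474-Var1 cells did not pass without any 1 of the 4 arrays compared (adjusted p = 0.0512 to 0.0772), and quantile normalization reduced it to -0.19 (adjusted p = 0.0484). Of 26710 probes that were measured on all 6 arrays, 38.7% changed more than NR2F2 between BT474-Var1 and Control cells and 23.5% changed more between BT474-Var4 and BT474-Var1 cells.

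NR2F2-AS1, the antisense RNA beside NR2F2, was faint. Its 4 probes lie on the minus strand of chromosome 15, between 11.7 and 206.8 kb from the NR2F2 probe, and the annotation describes them as transcript variants 1, 2 and 3. A_22_P00000346 (variant 2, chr15:96833859-96833918) was the only one that all 6 arrays measured, and its sequence is shown because the one change of this RNA rests on it.
NR2F2-AS1 A_22_P00000346: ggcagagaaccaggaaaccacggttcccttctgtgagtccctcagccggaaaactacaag

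A_22_P00000346 was at -2.83 and -2.84 on the Control arrays, at -2.58 and -2.45 on the BT474-Var1 arrays, and at -2.81 and -2.66 on the BT474-Var4 arrays. The BT474-Var1 arrays were the highest. It rose by 0.32 ± 0.08 in BT474-Var1 relative to Control cells (SE, n = 2 per group; adjusted p = 0.0385, limma), a change of 1.25-fold. The call was lost under 8 of 15 alternatives, among them quantile normalization, with a change of 0.15 (adjusted p = 0.247), and without any 1 of the 4 arrays compared (adjusted p = 0.0694 to 0.14), and normexp reduced the change to 0.12. In BT474-Var4 cells it was 0.10 above Control (95% interval -0.11 to 0.31; adjusted p = 0.384).

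The other 3 probes of NR2F2-AS1 say little. A_33_P3421318 (variant 3, chr15:96675071-96675130) lay between -4.39 and -3.01 on the 6 arrays, 4 of which measured it, and the groups overlapped. A_21_P0014301 (variant 3, chr15:96870225-96870284) and A_24_P795371 (variant 1) were not above background on any array and were not tested. The annotation places A_24_P795371 on 11 bases only, chr15:96809604-96809614, although the probe has 60.

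NR2F6, the remaining receptor, had its probe on the minus strand at chr19:17342694-17342753 and was measured on every array. It was at 8.0 and 7.99 on the Control arrays, at 7.88 and 7.85 on the BT474-Var1 arrays, and at 7.80 and 7.72 on the BT474-Var4 arrays. The Control arrays were the highest and the BT474-Var4 arrays the lowest, and no spot was marked as saturated. NR2F6 fell by 0.24 ± 0.06 in BT474-Var4 relative to Control cells (SE, n = 2 per group; adjusted p = 0.044, limma), a fall of 1.18-fold. In BT474-Var1 cells it was 0.13 ± 0.06 below Control (95% interval -0.28 to 0.01; adjusted p = 0.133), and between BT474-Var4 and BT474-Var1 cells it differed by -0.10 (95% interval -0.25 to 0.04; adjusted p = 0.196). The fall in BT474-Var4 cells did not pass under 10 of 15 alternatives: quantile normalization gave -0.10 (adjusted p = 0.286), the replicate block an adjusted p of 0.0753, and the fits without 1 of the 6 arrays 0.0794 to 0.164.

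Of the 11 probes, 9 passed the filter on dim probes and were tested. In BT474-Var1 against Control cells 6 of 9 passed, 4 higher and 2 lower, where 34.4% of all tested probes passed, 14.1% higher and 20.3% lower. In BT474-Var4 against Control cells 4 of 9 passed, 2 higher and 2 lower, against 24.2% of all tested probes, 9.87% higher and 14.3% lower. Between BT474-Var4 and BT474-Var1 cells 6 of 9 passed, 4 higher and 2 lower, against 41.2% in all, 20.4% higher and 20.8% lower. The probes of the transfected RNA itself made up 3 of the 6, 2 of the 4 and 4 of the 6. No probe of that RNA was measured on both Control arrays. They entered the test only through variant populations in which they were high, so their passes are no result about the receptor family. Among the 3 receptors, NR2F1 and NR2F2 were lower in BT474-Var1 cells, NR2F1 and NR2F6 were lower in BT474-Var4 cells, and none passed as higher than Control. With so large a share of all probes passing, a pass says little by itself and the sizes of the changes differ widely. The plot of fitted changes shows them on their own scales.

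**Figure D3:**
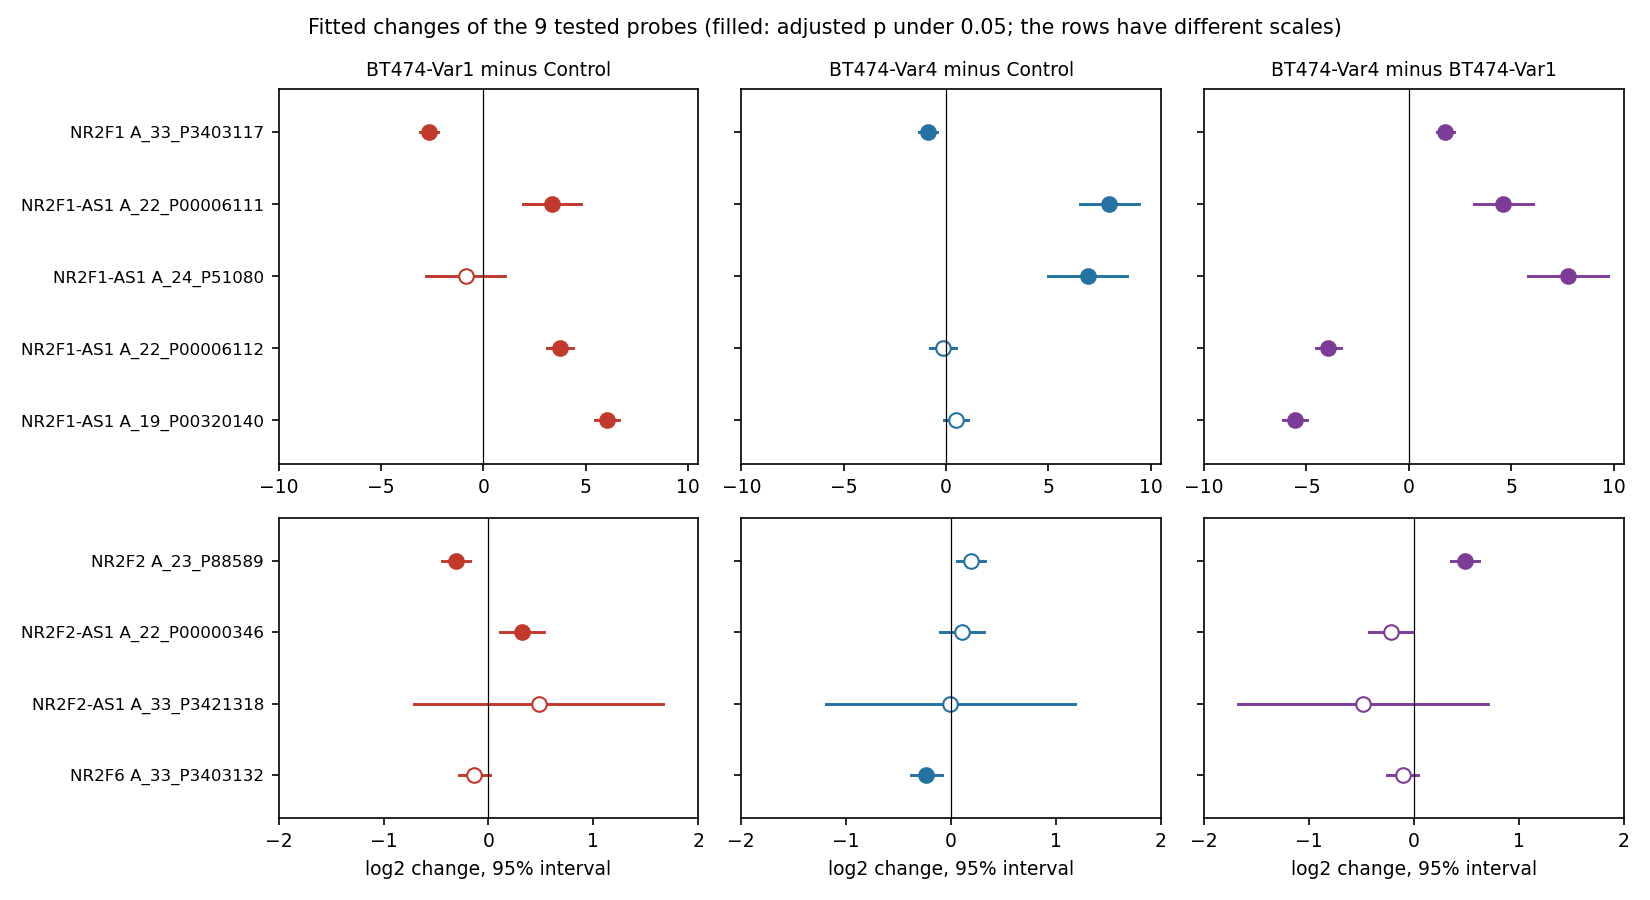
Fitted log2 changes (points) with 95% intervals (lines) of the 9 tested probes in the 3 comparisons, with NR2F1 and NR2F1-AS1 in the upper row and NR2F2, NR2F2-AS1 and NR2F6 in the lower row on a finer scale; filled points passed at an adjusted p under 0.05, and levels below background entered the fit as given. Changes of NR2F1-AS1 that passed reached from 3.36 to 7.98 in size, while those of NR2F2, NR2F2-AS1 and NR2F6 stayed within 0.49.

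The genes around each receptor were compared with it, taking every probe of another gene name within 500 kb of one of the 11 probes. There were 71 such probes, 38 of them tested. At the NR2F1 locus 4 of 12 were tested, and 2 of the 4 passed in BT474-Var1 against Control cells, beside 34.4% of all tested probes. FAM172A, the next protein-coding gene, 24.2 kb from the NR2F1 probe, rose by 0.28 (adjusted p = 0.0285, limma), and the unnamed transcript of A_33_P3293734 fell by 0.20 (adjusted p = 0.0492); both are named after their values were seen. In BT474-Var4 against Control cells 0 of the 4 passed by limma, beside 24.2% of all tested probes, with 1 at an unadjusted p under 0.05. By one-way analysis of variance with adjusted p-values 0 of the 4 passed as well. The largest change among the 4, -0.47 for lnc-KIAA0825-1 between the variant populations, did not pass (adjusted p = 0.136). The call of A_33_P3293734 was lost without any 1 of the 6 arrays and that of FAM172A without any 1 of the 4 arrays compared.

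At the NR2F2 locus 4 of 20 neighbors were tested, and 0 of the 4 passed in any of the 3 comparisons, by limma, by the one-way analysis of variance or at an unadjusted p under 0.05. By limma 34.4%, 24.2% and 41.2% of all tested probes passed in the 3 comparisons. The largest change of the 4 neighbors was -0.96, for lnc-AC016251.1-2 between the variant populations (adjusted p = 0.103). At the NR2F6 locus 30 of 39 neighbors were tested. Against Control cells 17 (56.7%) passed in BT474-Var1 cells and 7 (23.3%) in BT474-Var4 cells, beside 34.4% and 24.2% of all tested probes.

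BST2, an interferon-induced membrane protein that tethers virus particles to the cell, had the largest rises near NR2F6. It lies 171.1 kb from the NR2F6 probe, and its probe A_33_P3220911 rose by 2.21 in BT474-Var4 (adjusted p = 0.00311, limma) and by 0.99 in BT474-Var1 cells (adjusted p = 0.00695), while A_23_P39465 rose by 0.85 and 0.55. CPAMD8 fell by 0.66 in BT474-Var1 cells (adjusted p = 0.00522), and the fatty acid transporter SLC27A1 rose by 0.61 there on 1 of its 2 probes (adjusted p = 0.00483). The mitotic spindle protein HAUS8 fell on both probes in both populations, by 0.47 and 0.26 in BT474-Var1 cells and by 0.39 and 0.26 in BT474-Var4 cells. The calls of BST2 on A_33_P3220911, of CPAMD8 and of SLC27A1 passed under all 15 alternatives, while each of the 4 calls of HAUS8 was lost without at least 3 of the arrays, one at a time. The size of the BST2 rise on A_33_P3220911 was less stable. Over the alternatives it ran from 0.60 to 2.34 in BT474-Var4 cells and from 0.22 to 1.11 in BT474-Var1 cells. In Control cells this probe was dim, with a mean level of -3.63. Over all neighbors 19 of 38 (50%) passed between BT474-Var1 and Control cells, 7 of 38 (18.4%) between BT474-Var4 and Control cells, and 18 of 38 (47.4%) between the populations, beside 34.4%, 24.2% and 41.2% of all tested probes.

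**Figure D4:**
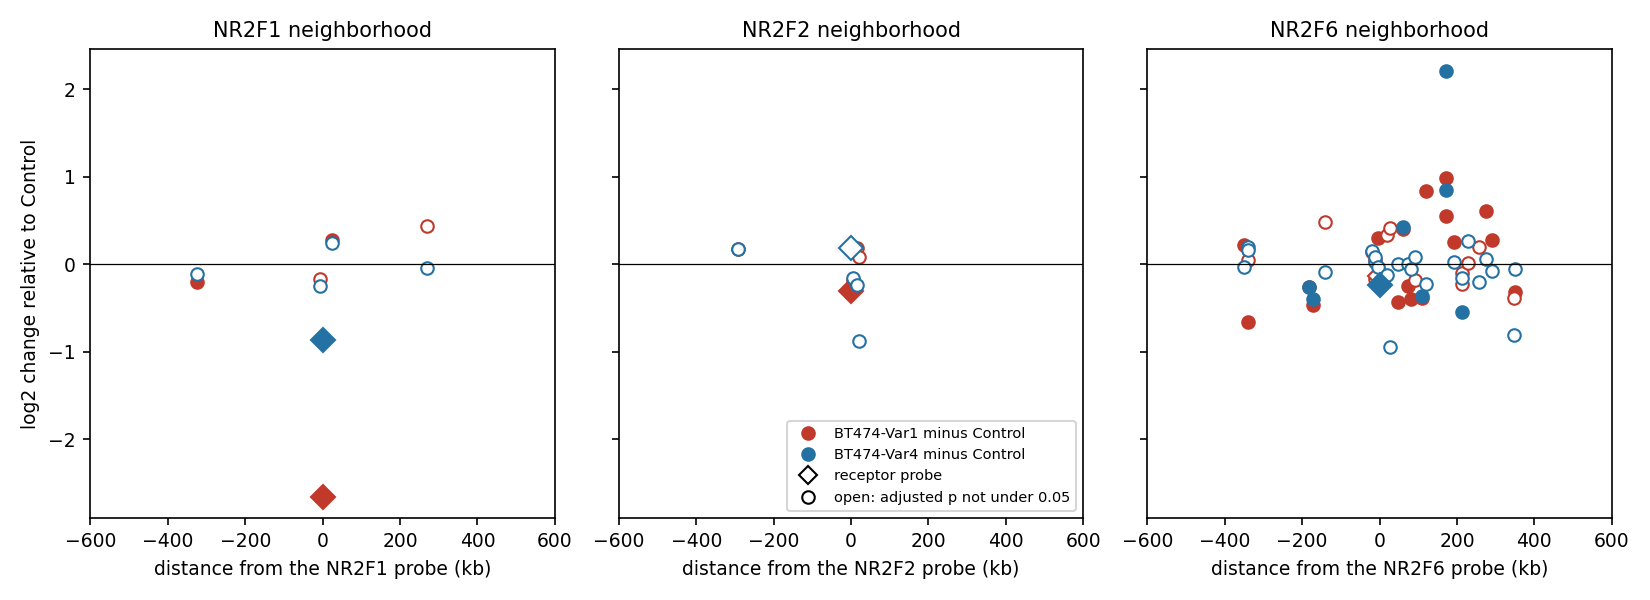
Log2 change relative to Control (vertical axis) of tested probes within 500 kb against the distance in kb from the receptor probe (horizontal axis), for the NR2F1, NR2F2 and NR2F6 loci; diamonds are the receptor probes, circles the neighbors, and filled symbols passed at an adjusted p under 0.05. At the NR2F1 locus the receptor lies far below its 4 tested neighbors, while near NR2F6 both probes of BST2 rose in both populations.

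Of 9 relatives and dimer partners (the other receptors of subfamily 2 and the retinoid X receptors), 6 genes had 7 tested probes, and 3 of the 7 (42.9%) passed in BT474-Var1 against Control cells, beside 34.4% of all tested probes. RXRB, a dimer partner of the COUP-TFs, rose by 0.64 (adjusted p = 0.0128, limma), NR2E3, a photoreceptor regulator, rose by 0.75 (adjusted p = 0.0389), and NR2C2 fell by 0.44 on 1 of 2 probes (adjusted p = 0.0458). In BT474-Var4 against Control cells 0 of the 7 passed, by limma, by the one-way analysis of variance or at an unadjusted p under 0.05. By limma 24.2% of all tested probes passed there. Between BT474-Var4 and BT474-Var1 cells 3 of the 7 passed, beside 41.2% of all tested probes: RXRB (-0.67, passing under all 15 alternatives), NR2E3 (-0.79) and NR2C2 on the same probe (0.49). The call of NR2C2 was lost without any 1 of the 6 arrays and that of NR2E3 without any 1 of them but Control B, and that of RXRB without either BT474-Var1 array. The median change of the 7 was 0.21 in BT474-Var1 cells and 0.04 in BT474-Var4 cells, beside -0.04 and -0.08 over all tested probes.

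Of 8 cofactors of the COUP-TFs, 7 genes had 10 tested probes, and 2 (20%) passed in BT474-Var1 against Control cells, beside 34.4% of all tested probes. The acetyltransferase EP300 fell by 0.30 (adjusted p = 0.0146, limma) and SQSTM1, an adaptor protein that binds NR2F2, rose by 0.24 (adjusted p = 0.0304). In BT474-Var4 cells 0 of the 10 passed against Control, by limma and by the one-way analysis of variance, with 4 at an unadjusted p under 0.05. By limma 24.2% of all tested probes passed there. The corepressor NCOR1 differed between the populations, by 0.29 in favor of BT474-Var4 on 2 of its 3 probes (adjusted p = 0.0306 and 0.0328). The calls of SQSTM1 and of the NCOR1 probe A_24_P204214 were lost without any 1 of the 6 arrays and that of EP300 without any 1 of the 4 arrays compared. The medians of the 10 were -0.12 and -0.03.

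Of 21 genes that COUP-TFs are known to regulate or to be regulated with in other tissues, 15 had 22 tested probes, of which 11 passed in BT474-Var1 (4 higher, 7 lower) and 8 in BT474-Var4 cells (4 higher, 4 lower) against Control. These were 50% and 36.4%, beside 34.4% and 24.2% of all tested probes. NRP1, a co-receptor for VEGF and semaphorins, moved in opposite directions: its probe A_24_P928052 was at 1.71 and 1.77 in Control cells, at 1.19 and 1.26 in BT474-Var1 cells and at 2.37 and 2.31 in BT474-Var4 cells. It fell by 0.52 in BT474-Var1 (adjusted p = 0.00664, limma) and rose by 0.60 in BT474-Var4 cells (adjusted p = 0.00722), and the second probe, A_24_P135322, did likewise (-0.44 and 0.52). Without Control A the rise of A_24_P928052 in BT474-Var4 cells did not pass (adjusted p = 0.053), and both calls of A_24_P135322 were lost without either Control array. Between the populations both probes passed under all 15 alternatives, with differences of 1.12 and 0.96. The order of the groups for NRP1 was that of NR2F2. This order does not single out NRP1. Of 11712 probes measured on all 6 arrays that varied at least as much as NR2F2, 966 had an r over 0.95 with NR2F2. Whether NR2F2 acts on NRP1 in these cells was not tested.

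CXCL12, a chemokine, fell in both populations on the probes A_23_P202448 (-0.70 and -1.08) and A_24_P412156 (-0.60 and -1.12), while A_33_P3712341 passed only in BT474-Var4 cells (-0.22 and -0.59) and A_33_P3372840 in neither (0.03 and -0.05). CXCR4, its receptor, rose by 1.27 in BT474-Var1 cells (adjusted p = 0.00233, limma) and was 0.03 above Control in BT474-Var4 cells (adjusted p = 0.726). On the probe A_23_P215790 EGFR, a growth factor receptor, rose by 1.61 in BT474-Var1 cells (adjusted p = 0.00445). SOX9 fell by 0.75 in BT474-Var1 cells (adjusted p = 0.0149) and E2F1, a driver of the cell cycle, by 0.51 in BT474-Var4 cells (adjusted p = 0.0101). NOTCH1 passed on a different probe in each population, with -0.46 in BT474-Var1 cells and 0.41 in BT474-Var4 cells. Leaving out 1 array at a time ended no call of CXCR4, of EGFR on A_23_P215790 or of CXCL12 on A_23_P202448, but that of SOX9 was lost without Control A, Control B or BT474-Var1 A, that of E2F1 without either Control array, and that of NOTCH1 in BT474-Var4 cells without any 1 of the 6. The medians of the 22 were -0.18 and -0.04, and the 3 lists together passed at 16 of 39 (41.0%) in BT474-Var1 cells and 8 of 39 (20.5%) in BT474-Var4 cells, beside 34.4% and 24.2% over all tested probes.

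**Figure D5:**
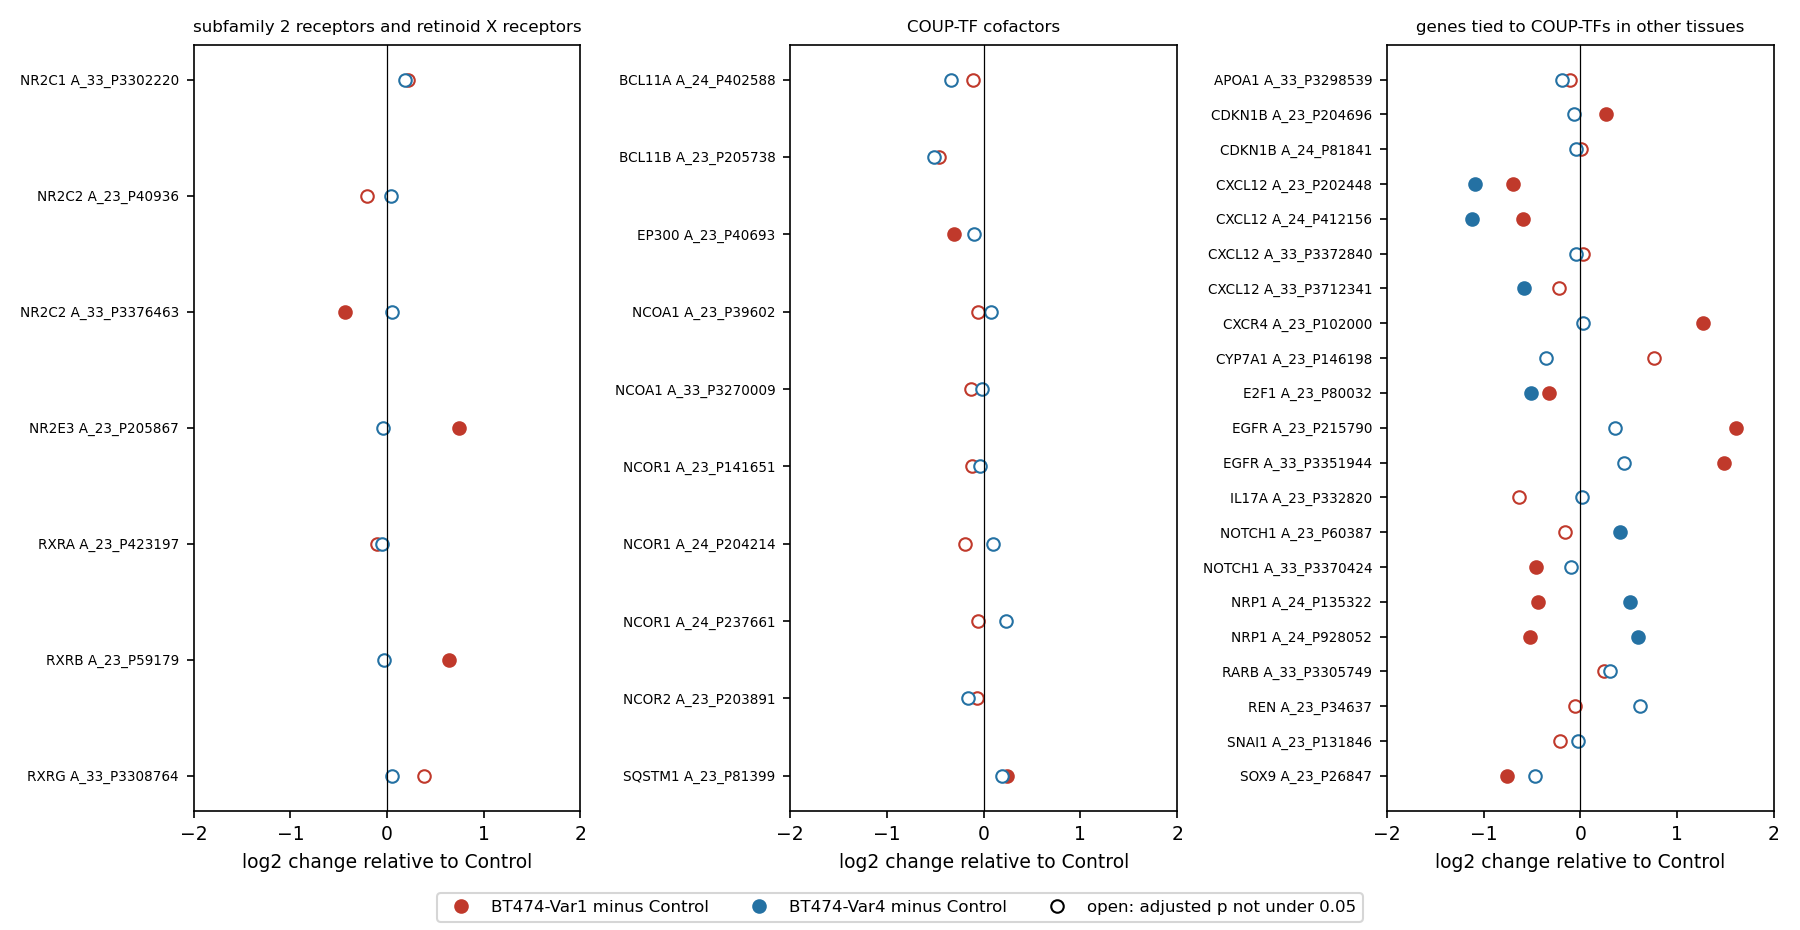
Log2 change relative to Control (horizontal axis) of 38 of the 39 tested probes of relatives and dimer partners (left), cofactors (middle) and genes tied to COUP-TFs in other tissues (right), by gene and probe; red points are BT474-Var1 and blue points BT474-Var4 cells, and filled points passed at an adjusted p under 0.05. The 2 probes of NRP1 lie at -0.52 and -0.44 in BT474-Var1 cells and at 0.60 and 0.52 in BT474-Var4 cells, and EGFR and CXCR4 have the largest rises in BT474-Var1 cells.

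NR2F1 and NR2F2 are also expressed by fibroblasts, and 2 of 3 tested fibroblast probes rose in BT474-Var4 cells, where 9.87% of all tested probes passed as higher. COL1A1, a fibrillar collagen, was 1.03 above Control there (adjusted p = 0.00293, limma), and DCN, a matrix proteoglycan, was at least 7.11-fold higher than in Control cells (adjusted p = 0.0125; lost without Control A or either BT474-Var4 array). The DCN probe was below background on all Control and BT474-Var1 arrays. It entered the test only through BT474-Var4 cells, where it was high, so its pass cannot be weighed against the 9.87%. The COL1A1 probe was measured on all 6 arrays. PDGFRB, a growth factor receptor of mesenchymal cells, differed by -0.32 between BT474-Var4 and Control cells on its tested probe, which did not pass (adjusted p = 0.129). The summed level of the 8 fibroblast probes, on a linear scale relative to the 75th percentile, was 3.15 and 3.19 in Control cells, 3.83 and 3.70 in BT474-Var1 cells and 5.74 and 5.57 in BT474-Var4 cells. LUM, COL1A2 and COL3A1 were below background on all 6 arrays, as were 5 of the 8 probes in all. The part of other cells in the levels of NR2F1 and NR2F2 was not tested. Summed levels of endothelial and leukocyte probes were lowest in BT474-Var1 cells, at 2.04 to 2.20 against 2.70 to 3.07 and at 16.2 to 16.3 against 21.6 to 22.6 in the other 4 arrays. Against Control, 1 of 3 tested endothelial probes passed there, VWF at -0.87 (adjusted p = 0.00577, limma). Of 5 tested leukocyte probes 1 passed, CD79A at -0.50 (adjusted p = 0.00596, limma). Beside these, 34.4% of all tested probes passed. Whether the share of any cell type differed between the groups was not tested.

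Genes whose pattern over the 6 arrays was most like that of a member were sought among probes measured on all 6 arrays that varied at least as much. For NR2F2 they were LINC01146, FAM110C and SIKE1, each at r = 0.999 over 6 arrays, and 966 of 11712 probes had an r over 0.95. For A_22_P00000346 of NR2F2-AS1 they were USP3-AS1 (r = 0.988), KRT16P2 (r = 0.987) and MED23 (r = 0.978), with 85 of 17368 over 0.95. For NR2F6 they were CNOT1 (r = 0.998), CHRNA7 (r = 0.997) and ARPC5 (r = 0.997), with 391 of 22085 over 0.95. The 6 points are 3 groups of 2, so such an r mainly describes the relative spacing of 3 group means.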

How the data were processed

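Each array held Cy3-labeled RNA of 1 sample. The authors quantified the spots with Agilent Feature Extraction 11.5.1.1, and the deposited intensities are background-subtracted and detrended on a linear scale, with marks for dim, saturated and outlier spots. The authors also deposited log2 values after a shift to the 75th percentile of each array, and these were used as an alternative. Gene names, positions on hg19 (GRCh37), transcript descriptions and probe sequences are those of the array files.

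From the intensities the log2 was taken, the array's 75th percentile over non-control probes was subtracted, outlier spots were left out and spots of a probe were averaged. A probe was tested where both arrays of some group were well above background. The test was limma 3.58.1 in R 4.3.3, fitted with group means, moderated variances and Benjamini-Hochberg adjustment over 31858 probes, two-sided. A group below background on all its arrays gives a bound ("at least"), from its values raised to the dimmest measured probe of the same array. The share of probes above background and the number of arrays limit the precision. The members, gene lists and tests were chosen with earlier results of these data known. Genes of a list and neighbors were named if they passed, at most 6 per list and comparison by size of change, and genes of like pattern were the 3 of highest correlation. Alternatives were quantile normalization, normexp (offset 50), the deposited log2 values, no filter or one on all 6 arrays, a block for the replicate letter, trend and robust estimation, fits of the compared groups alone, one-way analysis of variance, a 2-fold rule, and leaving out each array. The study's methods also name a one-way analysis of variance but state no adjustment. The one used here had unmoderated variances and Benjamini-Hochberg adjustment, so its calls are not those of the study's rule. The letters A and B are not stated to pair arrays. The values of 1 listed gene are not reported here; it is counted in the list totals.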

Additional observations from a re-analysis of the deposited data

How the results depend on the processing

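With 2 arrays per group, many calls rest on each array, and NR2F1-AS1 and NR2F1 were near background in at least 1 group. The directions of NR2F1, NR2F2 and NR2F6 held in every alternative, as did those of the named neighbors and list genes in the comparisons where they passed. With no filter, so that 58201 probes were tested, 3, 1 and 6 probes of the 11 passed in BT474-Var1 against Control cells, in BT474-Var4 against Control cells and between the populations, where 6, 4 and 6 passed before, with 4, 1 and 3 neighbors (19, 7 and 18 before) and 4, 2 and 6 list probes (16, 8 and 17 before). Over all probes, 2672, 722 and 5112 passed with no filter, where 10959, 7709 and 13117 passed before. With probes measured on all 6 arrays only, which leaves 3 of the 11, 2, 2 and 1 passed, beside 11582, 8704 and 12930 of all 26710 such probes. The 2-fold rule left 2 of the 11 in BT474-Var4 against Control, 0, 1 and 3 neighbors and 3, 3 and 5 list probes. Over all tested probes it left 1256, 1010 and 2187 of 31858.

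In BT474-Var4 against Control cells, trend and robust estimation gave 13 neighbors and 14 list probes, and normexp 12 and 13, beside 11424 and 10894 of all 31858 tested probes. Between the variant populations the analysis of variance gave 11 list probes and quantile normalization 11 neighbors, beside 9970 and 12198 of all tested probes. With only the groups compared 12 neighbors passed in BT474-Var1 against Control cells, beside 9409 of all tested probes. Deviations of arrays of the same letter correlated at -0.01, 0.05 and -0.02, which cannot show whether such arrays were handled together. The replicate block gave 2 of the 11 in BT474-Var4 against Control, beside 4903 of all tested probes. It gave 11 neighbors in BT474-Var1 against Control and 11 between the populations, beside 8754 and 11150 of all tested probes. Leaving out any 1 array also lowered the calls over all tested probes in each comparison. Leaving out 1 array gave 3 to 6, 2 to 3 and 6 probes of the 11, 5 to 12, 2 to 6 and 5 to 12 neighbors, and 5 to 12, 3 to 8 and 8 to 15 list probes. Of the 11, 3 passed in BT474-Var1 cells without either BT474-Var1 array, and 2 in BT474-Var4 cells without either Control or either BT474-Var4 array.

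Changes turned sign in 12 cases, all where the change had not passed. For NR2F1-AS1 in BT474-Var4 against Control, A_19_P00320140 became -0.0557 under normexp and A_22_P00006112 became 0.00521 under quantile normalization and ran from -0.52 without Control A to 0.18 without Control B; A_24_P51080 in BT474-Var1 against Control became 0.00198 under normexp and 0.22 without Control B, and -1.95 with a pass (adjusted p = 0.0347, limma) without Control A, although BT474-Var1 cells gave no measured value there. For NR2F2-AS1, A_33_P3421318 ran from -0.0318 without BT474-Var1 B to 0.99 without BT474-Var1 A (against Control) and from -0.99 without BT474-Var1 A to 0.0254 without BT474-Var1 B (between the populations), and was in BT474-Var4 against Control 0.19 under quantile normalization, 0.19 without Control A and from -0.39 without BT474-Var4 A to 0.38 without BT474-Var4 B; A_22_P00000346 became -0.0212 in BT474-Var4 against Control under normexp and 0.028 between the populations under quantile normalization. Over all alternatives, the calls of named list and neighbor genes were kept in 1032 fits and lost in 341. With no filter, 51.5% of the calls between BT474-Var1 and Control cells and 59.8% between BT474-Var4 and Control cells were higher, where 40.9% and 40.8% were before, and the median of all probes rose to 0.12 from -0.04 in the first. The cause was not tested.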
